A study of Mus musculus with 12 samples.

Results

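The genes of the nuclear lamina and of the LINC complex were examined in adult cardiomyocytes (ACM) of mice with and without desmin. The set held 10 genes, chosen by symbol: Lmna, Lmnb1, Lmnb2, Sun1, Sun2, Syne1, Syne2, Syne3, Emd and Tmpo. Each had 1 row among the 21493 genes listed in all 12 count tables, and all 10 passed the filter on low counts that left 13158 genes for testing. Poly-A RNA came from cells taken from the heart by enzymatic perfusion at 3 months of age and harvested directly afterwards. The mice carried desmin (Des+/+) or were null for it (Des-/-), and had gone through swimming exercise (swim) or not (non-swim). The 4 groups, Des+/+ non-swim, Des+/+ swim, Des-/- non-swim and Des-/- swim, held 3 libraries each. Cells of several mice were combined for a library according to the study's methods, and p-values therefore measure the spread between such pools.

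The nuclear lamina is a meshwork of intermediate filament proteins, the lamins, under the inner nuclear membrane. Lamins A and C are splice products of Lmna, and lamins B1 and B2 are encoded by Lmnb1 and Lmnb2. SUN proteins cross the inner membrane and bind, in the space between both nuclear membranes, the KASH ends of nesprins in the outer membrane. Together they form the linker of nucleoskeleton and cytoskeleton (LINC). Nesprin-3, the product of Syne3, binds plectin and through it cytoplasmic intermediate filaments, of which desmin is the main one in cardiac muscle. Emerin (Emd) and the lamina-associated polypeptides encoded by Tmpo are LEM-domain proteins that tether chromatin to the lamina, and mutations in LMNA or EMD cause human cardiomyopathy.

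Assigned reads per library ranged from 4320819 to 12072443. The targeted gene Des lay between 973 and 3647 CPM (reads of a gene per 1000000 in its library, scaled by TMM, the trimmed mean of M-values) in the 6 Des+/+ libraries and between 50.3 and 100.5 CPM in the 6 Des-/- libraries. Replicate 3 of both Des-/- groups stood apart from its group on the first principal component. The cell type label was checked against markers. The 8 cardiomyocyte genes summed to between 25280 and 78460 CPM in Des+/+ libraries and to between 4867 and 22120 CPM in Des-/- libraries, and none of them was at 0. Markers of other cells moved as well. In Des+/+ libraries the 10 fibroblast genes summed to between 3539 and 4163 CPM (non-swim) and between 2687 and 3779 CPM (swim). In Des-/- libraries they summed to between 8888 and 42920 CPM (non-swim) and between 4393 and 14450 CPM (swim). The 10 macrophage genes summed to 222 to 343, 254 to 318, 426 to 4396 and 234 to 1388 CPM in the same order. Of 10 genes that respond to cell isolation, 9 were called higher in Des-/- ACM without and 6 after swimming, 0 and 1 of 8 endothelial genes were called higher by edgeR, and 1 and 0 of 7 mural cell genes lower. No fibroblast or macrophage marker was at 0 in any library. In such mixtures, fewer cells of a type and less RNA per cell cannot be told apart, which holds for every difference given for these 10 genes.

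The promoters of the genes on which the results turn are shown first, because Lmna, Lmnb2 and Syne3 were higher and Sun2 lower in the same comparison. The sequences are RefSeq's for GRCm38.p6, 5′ to 3′ on the strand of the gene, and end at the base before the first-listed start or before an annotated exon of the gene. Capitals mark the letters GGGCGG (the GC box) and CCAAT on either strand. Of the 10 genes, 9 were matched to the promoter table, and no window of Lmnb1, the gene with the largest change, is shown. The Lmna and Syne3 windows lie inside the annotated genes, which begin further upstream, at chr3:88509956 and chr12:105009809. So do the first-listed windows of Tmpo and Syne1, not shown, whose genes begin at chr10:91181315 and chr10:5551482.
Lmna (chr3:88503387-88503602, minus strand): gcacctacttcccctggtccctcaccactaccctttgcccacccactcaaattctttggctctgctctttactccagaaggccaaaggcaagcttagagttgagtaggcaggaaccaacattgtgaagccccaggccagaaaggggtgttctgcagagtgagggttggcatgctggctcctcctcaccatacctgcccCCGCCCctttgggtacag
Lmnb2 (chr10:80918246-80918495, minus strand): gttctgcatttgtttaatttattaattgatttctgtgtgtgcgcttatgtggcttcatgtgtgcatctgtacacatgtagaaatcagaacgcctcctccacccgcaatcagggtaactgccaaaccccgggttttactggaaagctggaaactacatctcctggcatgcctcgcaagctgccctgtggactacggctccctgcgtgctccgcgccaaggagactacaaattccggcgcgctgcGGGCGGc
Syne3 (chr12:104998678-104998927, minus strand): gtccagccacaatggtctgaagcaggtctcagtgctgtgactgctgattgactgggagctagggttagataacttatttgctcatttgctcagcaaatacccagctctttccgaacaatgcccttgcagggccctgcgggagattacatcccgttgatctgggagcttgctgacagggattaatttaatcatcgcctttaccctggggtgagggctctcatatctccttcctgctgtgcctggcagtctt
Sun2 (chr15:79742537-79742786, minus strand): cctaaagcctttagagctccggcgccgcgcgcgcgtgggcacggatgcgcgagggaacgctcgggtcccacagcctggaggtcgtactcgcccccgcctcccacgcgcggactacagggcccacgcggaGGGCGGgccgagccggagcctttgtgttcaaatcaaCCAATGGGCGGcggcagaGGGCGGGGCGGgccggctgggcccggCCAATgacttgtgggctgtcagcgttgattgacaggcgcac
The Sun2 window held 4 GC boxes, 2 of which overlapped each other, and 2 CCAAT motifs, the Lmna and Lmnb2 windows 1 GC box each and the Syne3 window neither motif. The Tmpo window held as many of each as that of Sun2, and the Sun1 window held 3 and 2, although neither gene was called by edgeR. Over the 250 bases before the first-listed start, 8 of the 9 matched genes held GGGCGG and 4 held CCAAT. In Syne2, 1 of these 8, the matches lie past the first 66 bases, where an annotated exon of the gene begins. Of all 32851 windows of that length, which include further starts of a gene, 32.7% and 33.8% did. Such further windows were not counted for the 9 genes, and those listed for Lmna, Sun1, Syne1, Lmnb2 and Tmpo held no GGGCGG. GC content was 51.2% to 70.8% in the first-listed windows of the 9 genes, beside a median of 52.4% over all windows. None of the 9 first-listed windows held TATAAA, which 12.4% of all windows hold, or TGANTCA, the AP-1 motif, which 6.75% hold. Further windows of Sun1 and Syne1 did hold TATAAA. A match is a run of letters, not a bound site.

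Levels between genes were compared per kilobase of merged exon (CPM per kb). In the Des+/+ non-swim group Sun2 (37.2 ± 2.28, SD, n = 3) and Lmna (35.2 ± 5.31) stood highest, and their libraries overlapped. Sun1 followed at 17.9 ± 0.804 CPM per kb, below both and above Emd at 14.1 ± 1.07, without overlap. Emd and Tmpo (11.8 ± 1.63) overlapped, and Tmpo lay above Syne2 (6.64 ± 0.273). Syne2, Lmnb1 (4.65 ± 1.97), Lmnb2 (4.12 ± 1.46) and Syne1 (2.87 ± 0.304) could not be separated from their neighbours in this order. Syne3 was lowest at 1.76 ± 0.417 CPM per kb, without overlap with Syne1.

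Averaged over the 3 libraries, Lmna lay above 88.5% of the tested genes in that group and Syne3 above 22.1%. In the other 3 groups Lmna came first, and in both Des-/- groups its libraries did not overlap those of Sun2. Lmnb1 came 7th of 10 without swimming in Des+/+ mice and 6th in Des-/- mice, where it reached 14.3 ± 5.77 CPM per kb and overlapped Tmpo, Emd and Lmnb2. Syne3 moved above Syne1 in the other 3 groups, with no overlap between the 2 genes except in the Des-/- swim group. These values divide by the length of all annotated exons. They therefore understate a gene where mainly short isoforms are transcribed. The merged exons of Syne1 span 40.5 kb against 5.55 kb for Syne3, and which isoforms these libraries held was not tested.

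**Figure D1:**
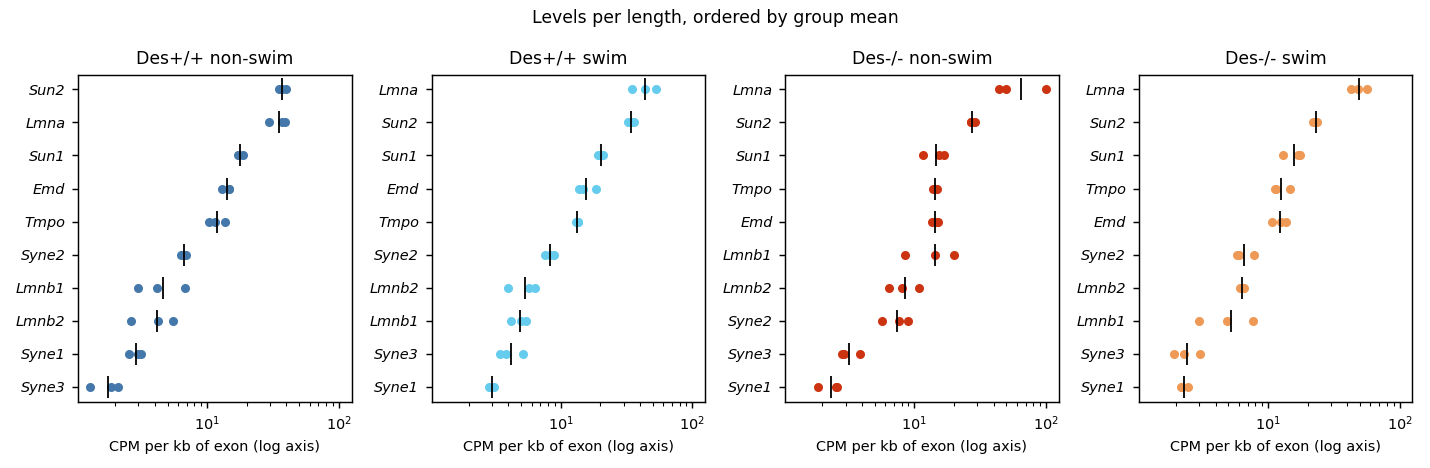
Levels of the 10 transcripts per kilobase of exon (log axis) in each group, ordered by group mean. Points are the 3 libraries and vertical ticks the means. Lmna and Sun2 lie at the top and Syne1 and Syne3 at the bottom in every group, and the mean of Lmna without swimming is 35.2 CPM per kb in Des+/+ and 64.8 in Des-/- libraries.

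The first comparison asked how these transcripts differ with the loss of desmin in mice that had not swum. All 3 lamin genes and Syne3 were higher in Des-/- ACM, and Sun2 was lower. By edgeR's quasi-likelihood test with Benjamini-Hochberg adjustment over all 13158 genes, 4 members were called higher and 1 lower at an adjusted p under 0.05, where 14.0% of all tested genes were called higher and 18.0% lower. The libraries of both genotypes did not overlap for 7 of the 10 members, against 47.9% of all tested genes. The median log2 change of the 10 members was 0.22, and that of all tested genes was 0.04. Scaling by library totals alone moved the latter to 0.29, and 69.9% of the genes it called were higher, against 43.7% with TMM and 55.1% with upper-quartile scaling. The 5 called members kept their direction under all 4 scalings.

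**Figure D2:**
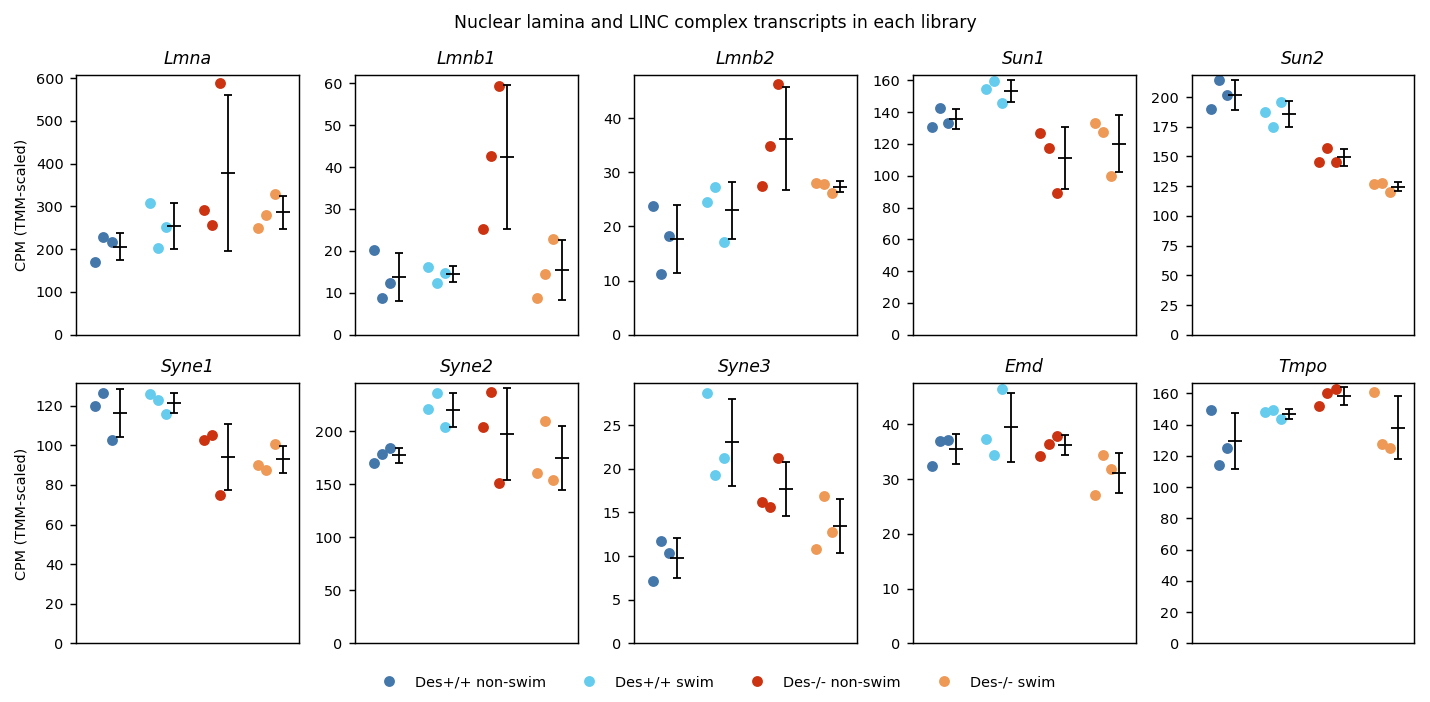
TMM-scaled CPM of each gene in every library (points, replicates 1 to 3 from left to right), with the group mean ± SD beside them (n = 3). The Des-/- non-swim libraries lie above all Des+/+ non-swim libraries for Lmna, Lmnb1, Lmnb2 and Syne3, and both Des-/- groups lie below both Des+/+ groups for Sun2.

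Lmnb1, which encodes lamin B1, a protein known to be lost from senescent cells, showed the largest change among the 10 genes. It stood at 20.2, 8.77 and 12.4 CPM in the Des+/+ non-swim libraries and at 25.2, 42.6 and 59.4 CPM in the Des-/- non-swim libraries. Every Des-/- library was above every Des+/+ library. The difference was 3.08-fold (log2 1.62 ± 0.40, SE; edgeR adjusted p = 0.0105). Leaving out each of the 12 libraries gave log2 changes from 1.30 to 2.00, all called. Lmnb1 lies at chr18:56707813-56753424 on the plus strand.

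Lmnb2, encoding lamin B2, moved the same way. Its levels were 23.7, 11.2 and 18.1 CPM in Des+/+ and 27.4, 34.8 and 46.3 CPM in Des-/- libraries. The groups did not overlap, and the gap between the nearest libraries was small. The change was 2.05-fold (log2 1.03 ± 0.27, edgeR adjusted p = 0.0150), and the call was lost without the second Des+/+ non-swim library (0.79, adjusted p = 0.0527) or the Des-/- non-swim replicate 3 (0.82, adjusted p = 0.0583).

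Lmna, the gene of lamins A and C, which the tables count together, was the most abundant lamin transcript per length. It gave 171, 229.6 and 217 CPM in Des+/+ and 292, 256 and 587.5 CPM in Des-/- non-swim libraries. All Des-/- values were higher, and replicate 3 was far above the other 2. The change was 1.84-fold (log2 0.88 ± 0.29, edgeR adjusted p = 0.0378). Without the Des-/- non-swim replicate 3 it was 0.42 (adjusted p = 0.164). The call was also lost without any single Des+/+ non-swim library (0.76 to 0.96) and without replicate 3 of the Des+/+ swim group or replicate 2 of the Des-/- swim group (adjusted p = 0.0529 and 0.0513), so it held in 6 of the 12 fits with 1 library left out. Lmna lies at chr3:88480147-88509956 on the minus strand.

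Markers of dividing cells, fibroblasts and macrophages were also called higher in Des-/- ACM without swimming, in the numbers given here. The 6 proliferation genes, among them Mki67 and Top2a, summed to 74.1, 7.36 and 33.5 CPM in replicates 1, 2 and 3 of Des+/+ without swimming and to 72.2, 210.2 and 379 CPM in those of Des-/-. In both groups the order of the libraries by this sum was their order by Lmnb1, and it was so in the Des-/- swim group (13.9, 49.9 and 102 CPM) but not in the Des+/+ swim group (47.7, 43.5 and 31.3 CPM). Of the 6 genes, 3 were called higher without swimming. The fibroblast sum in the Des-/- non-swim group was 9739, 8888 and 42920 CPM, and the order of the libraries by it was their order by Lmna. In the Des-/- swim group it was 4896, 4393 and 14450 CPM. Replicate 3 was highest there for both, and replicates 1 and 2 were in the opposite order for Lmna. In the Des+/+ groups the order by fibroblast sum was not the order by Lmna: without swimming the sum was 4163, 3539 and 3793 CPM, the reverse of the order by Lmna, and after swimming it was 3424, 2687 and 3779 CPM. All 10 fibroblast and 9 of 10 macrophage markers were called higher and all 8 cardiomyocyte markers lower in this comparison. What part these cells have in the lamin values was not tested. Reads in no gene were 52.3%, 49.0% and 34.2% of uniquely aligned reads in replicates 1, 2 and 3 of Des-/- without swimming and 34.0% to 39.3% in Des+/+, so replicate 3 stood apart in this measure too, and its part was not tested either. With replicate 3 left out of both Des-/- groups, an alternative added after the data were seen, Lmnb1 (1.37, adjusted p = 0.0130), Lmnb2 (0.88, adjusted p = 0.0433) and Syne3 (0.77, adjusted p = 0.0438) were still called and Lmna (0.48, adjusted p = 0.0725) was not.

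**Figure D3:**
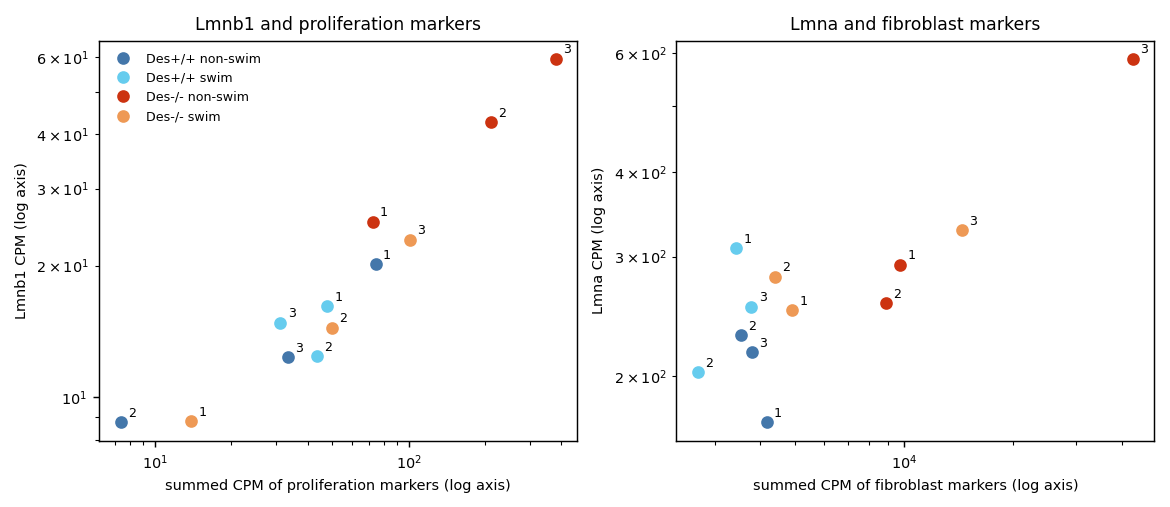
Left, Lmnb1 against the summed CPM of 6 proliferation markers; right, Lmna against the summed CPM of 10 fibroblast markers (all axes log, numbers give the replicate). Library 3 of Des-/- non-swim, at 59.4 CPM of Lmnb1 and 587.5 CPM of Lmna, lies at the upper right of both plots, and the remaining points of Lmna spread between 171 and 328 CPM.

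Syne3, encoding the nesprin that reaches intermediate filaments through plectin, was lower per length than every other member in the Des+/+ non-swim group, with 61 to 115 reads per library. It reached 7.19, 11.7 and 10.4 CPM there and 16.2, 15.6 and 21.3 CPM in the Des-/- non-swim group. The groups did not overlap. The change was 1.81-fold (log2 0.86 ± 0.25, edgeR adjusted p = 0.0217). The call was lost without replicate 1 (0.68, adjusted p = 0.0749) or replicate 3 (0.90, adjusted p = 0.0532) of the Des+/+ non-swim group and without the third Des-/- non-swim library (0.71, adjusted p = 0.0768).

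The giant nesprins gave no call. Syne1, encoding nesprin-1, which anchors nuclei in muscle, averaged 116 ± 12.3 CPM in Des+/+ and 94.2 ± 16.7 CPM in Des-/- non-swim libraries (log2 -0.30 ± 0.15, edgeR adjusted p = 0.131), and Syne2, encoding nesprin-2, averaged 177 ± 7.29 and 197 ± 43.2 CPM (log2 0.15 ± 0.17, adjusted p = 0.535). Both genotypes overlapped for these 2 genes.

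Sun2, one of the 2 SUN genes of somatic cells, was lower in Des-/- ACM. It stood at 189.5, 214 and 202 CPM in Des+/+ and at 145, 157 and 145 CPM in Des-/- non-swim libraries. The replicates were close to each other and the groups did not overlap. The difference was small and regular, 1.35-fold (log2 -0.44 ± 0.11, edgeR adjusted p = 0.0112), and was called with each of the 12 libraries left out. It depended on scaling: with library totals alone it was -0.18 (adjusted p = 0.223). It was also not called without the filter on low counts (adjusted p = 0.0526), from the 6 libraries alone (adjusted p = 0.0516) or without replicate 3 in both Des-/- groups (-0.35, adjusted p = 0.0620). Sun1, the other one, was below Des+/+ in all 3 Des-/- libraries (127, 117 and 89.0 against 131, 142.5 and 133 CPM), which did not pass the test (log2 -0.29 ± 0.15, edgeR adjusted p = 0.173). It was called only with replicate numbers as a block within Des-/-, an alternative added after the data were seen (-0.30, edgeR adjusted p = 0.0491).

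Emerin and the LAP2 gene did not pass. Emd lay at 35.5 ± 2.68 CPM (SD, n = 3) in Des+/+ and 36.2 ± 1.88 CPM in Des-/- non-swim libraries (log2 0.03 ± 0.14, edgeR adjusted p = 0.897). Tmpo lay at 130 ± 17.9 and 158 ± 5.58 CPM, without overlap (log2 0.29 ± 0.14, adjusted p = 0.126), and was called with library totals alone (log2 0.54, adjusted p = 0.0208). Emd shares 343 exon bases with a pseudogene on the same strand that is not among the counted genes, so its reads are less certain.

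The second comparison asked the same question after swimming. Sun2 alone was called, lower in Des-/- ACM, while the 3 lamin genes lay close to Des+/+ levels. No member was called higher, where 5.01% of all tested genes were, and 1 was called lower, where 5.57% were. The libraries did not overlap for 5 members, against 35.9% of all tested genes. The median log2 change of the members was -0.34, beside 0.02 for all tested genes (0.17 with library totals alone). Of all genes called, 47.3% were higher with TMM, 67.5% with upper-quartile scaling and 77.1% with library totals alone.

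Sun2 stood at 187, 175 and 196 CPM in Des+/+ swim and at 127, 127.5 and 120.1 CPM in Des-/- swim libraries. No library of one genotype came near the other. The difference was 1.49-fold (log2 -0.58 ± 0.11, edgeR adjusted p = 0.0143). It was called in 11 of the 12 fits with 1 library left out, the exception being replicate 3 of the Des+/+ swim group (-0.54, adjusted p = 0.0610), and under every scaling tried (with library totals alone -0.43, adjusted p = 0.0319). The 6 Des-/- libraries of both swimming states ranged from 120.1 to 157 CPM and the 6 Des+/+ libraries from 175 to 214 CPM. Sun2 lies at chr15:79724070-79742536 on the minus strand.

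Syne3 was on the other side of Des+/+ than without swimming. It stood at 28.7, 19.3 and 21.2 CPM in Des+/+ swim and 10.8, 16.8 and 12.8 CPM in Des-/- swim libraries. The groups did not overlap, and the difference missed the threshold (log2 -0.78 ± 0.25, edgeR adjusted p = 0.0639). It was called by DESeq2 (-0.78, adjusted p = 0.0320), which called 2 members where it called 15.9% of the genes it tested, by edgeR once library 3 of Des-/- non-swim was left out (adjusted p = 0.0458), and with replicate numbers as a block within Des-/- (-0.79, adjusted p = 0.0476). That block also called Sun1 (-0.36, adjusted p = 0.0426).

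Sun1, Syne1 and Emd were also lower in every Des-/- swim library than in any Des+/+ swim library, without a call. Sun1 averaged 153 ± 6.94 CPM in Des+/+ and 120.1 ± 17.9 CPM in Des-/- swim libraries (log2 -0.35 ± 0.15, edgeR adjusted p = 0.149). Syne1 averaged 121 ± 5.11 and 92.9 ± 6.87 CPM (log2 -0.39 ± 0.15, adjusted p = 0.103), and was called without the third library of Des-/- non-swim (-0.39, adjusted p = 0.0462). Emd averaged 39.4 ± 6.31 and 31.1 ± 3.65 CPM (log2 -0.34 ± 0.14, adjusted p = 0.136).

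The lamins overlapped between genotypes after swimming. Lmna stood at 308.5, 202 and 253 CPM in Des+/+ and 250.1, 280.1 and 328 CPM in Des-/- swim libraries (log2 0.17 ± 0.29, edgeR adjusted p = 0.721). Lmnb1 stood at 16.2, 12.4 and 14.8 CPM and at 8.82, 14.4 and 22.9 CPM (log2 0.09 ± 0.40, adjusted p = 0.898). The Des-/- values of Lmnb1 spread on both sides of the Des+/+ values, and its direction turned to -0.33 without replicate 3 of the Des-/- swim group. Lmnb2 averaged 23.0 ± 5.29 and 27.3 ± 1.00 CPM (log2 0.25 ± 0.27, adjusted p = 0.569). Syne2 and Tmpo gave log2 -0.33 ± 0.17 and -0.09 ± 0.14, neither called. Over the markers, 1 of 8 cardiomyocyte genes was called lower, 1 of 10 fibroblast genes higher and 0 of 10 macrophage genes either way by edgeR in this comparison. Reads in no gene did not overlap between the genotypes either, at 45.9% to 50.4% of uniquely aligned reads in Des+/+ and 57.2% to 64.5% in Des-/- swim libraries, and their part in these values was not tested.

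**Figure D4:**
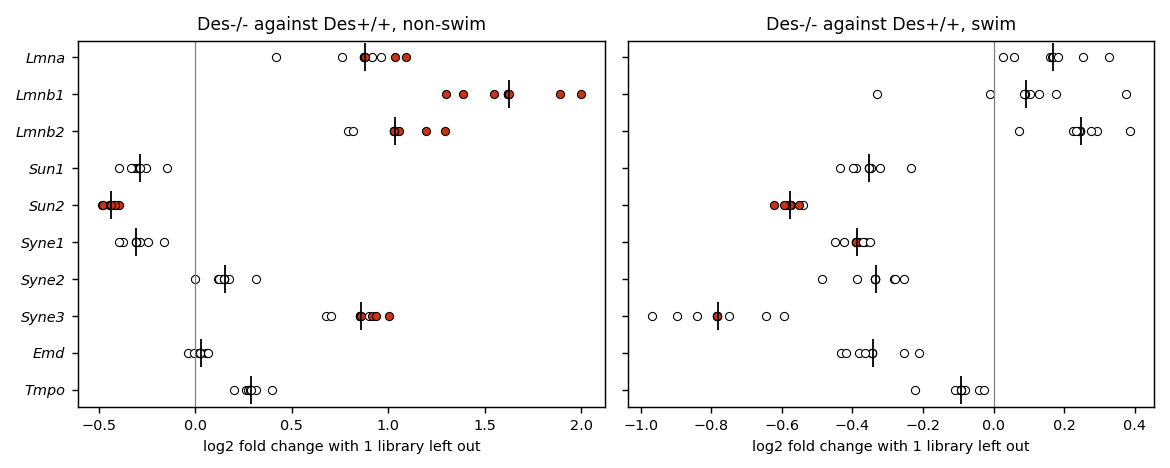
Log2 fold change of Des-/- against Des+/+ for each gene with 1 of the 12 libraries left out (points, red where the edgeR adjusted p was under 0.05), beside the value from all libraries (tick). Without swimming, Lmnb1 and Sun2 are called in all 12 fits, Lmnb2 in 10, Syne3 in 9 and Lmna in 6. After swimming, Sun2 is called in 11.

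The third comparison was of swimming in Des+/+ mice. Syne3 had the largest difference among the members, and no member was called by edgeR, which called 0.0912% of all tested genes, all of them higher. At an unadjusted p under 0.05, 1 member passed, where 20.5% of all tested genes did. Syne3 stood at 7.19, 11.7 and 10.4 CPM without and at 28.7, 19.3 and 21.2 CPM with swimming. It was called higher by DESeq2 (log2 1.26, adjusted p = 0.000462), which called 1 member and 6.54% of the genes it tested. In edgeR the change was 2.36-fold (log2 1.24 ± 0.25, adjusted p = 0.0633), and it was called in 6 of 9 other settings, with adjusted p from 0.0156 to 0.0498 for edgeR. With 1 library left out, the log2 change lay between 1.05 and 1.39, and it was called with Des-/- non-swim library 3 left out (adjusted p = 0.0395).

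The libraries of Des+/+ swim and non-swim mice did not overlap for 3 members (Syne3, Sun1 and Syne2), against 31.3% of all tested genes. Syne2 averaged 177 ± 7.29 CPM in non-swim and 220 ± 16.0 CPM in swim libraries (log2 0.31 ± 0.17, edgeR adjusted p = 0.326), and Sun1 136 ± 6.11 and 153 ± 6.94 CPM (log2 0.18 ± 0.15, adjusted p = 0.537). The log2 change lay above 0 for 9 of the 10 members, all but Sun2 (-0.12 ± 0.11), with a median of 0.18 beside -0.08 for all tested genes. The lamins gave log2 0.31 ± 0.29 for Lmna, 0.07 ± 0.40 for Lmnb1 and 0.38 ± 0.27 for Lmnb2. Syne1 gave 0.06 ± 0.15, Emd 0.15 ± 0.14 and Tmpo 0.18 ± 0.14, and the edgeR adjusted p of these 6 genes lay between 0.449 and 0.941. Reads in no gene made up 34.0% to 39.3% of uniquely aligned reads in Des+/+ libraries without and 45.9% to 50.4% with swimming, without overlap. Their part in these values was not tested.

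In Des-/- mice the comparison of swim with non-swim put Lmnb1 lowest of the members. It stood at 25.2, 42.6 and 59.4 CPM without and 8.82, 14.4 and 22.9 CPM with swimming, without overlap. The libraries numbered alike lay in the same order in both groups. The difference was 2.75-fold (log2 -1.46 ± 0.40, edgeR adjusted p = 0.187), and edgeR called no member and 0.0228% of all tested genes. At an unadjusted p under 0.05, 2 members (Lmnb1 and Sun2) passed, where 16.7% of all tested genes did.

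Same-numbered libraries of the Des-/- groups deviated together over all genes (correlations 0.365, 0.316 and 0.602), but so did replicates 1 and 2 across numbers (0.299 and 0.292), whereas replicate 3 gave -0.47 to -0.414 with either. In each group the 3 deviations of a gene sum to 0. A replicate 3 far out in both groups therefore by itself pushes the values among replicates 1 and 2 above 0. It likewise pushes those of replicate 3 with either below 0. The correlations thus set replicate 3 apart and do not show a pairing of replicates 1 and 2. With the number as a block within Des-/-, an alternative added after the data were seen, Lmnb1 was called (log2 -1.48 ± 0.26, edgeR adjusted p = 0.0215), where 2.77% of all tested genes were. DESeq2 without the block also called it (log2 -1.46, adjusted p = 0.0273), as its 1 member among 2.45% of the genes it tested. The libraries did not overlap for 2 members, Lmnb1 and Sun2, against 19.4% of all tested genes. Sun2 averaged 149 ± 6.85 and 125 ± 4.04 CPM, without a call (log2 -0.26 ± 0.11, edgeR adjusted p = 0.272). The median log2 change of the proliferation markers was -2.08 and that of the fibroblast markers -1.04, with none of the 6 and of the 10 called by edgeR. Lmna (-0.40 ± 0.29, adjusted p = 0.490) turned to 0.0675 once library 3 of Des-/- non-swim was left out. The log2 change was below 0 for 9 of the 10 members, all but Sun1 (0.11 ± 0.15), with a median of -0.24 beside -0.01 for all tested genes. Lmnb2 gave log2 -0.41 ± 0.27 and the nesprin genes gave -0.02 ± 0.15 (Syne1), -0.17 ± 0.17 (Syne2) and -0.40 ± 0.25 (Syne3). Emd gave -0.22 ± 0.14 and Tmpo -0.20 ± 0.14, and the edgeR adjusted p of these 6 genes lay between 0.421 and 0.958. Reads in no gene made up 34.2% to 52.3% of uniquely aligned reads in Des-/- libraries without and 57.2% to 64.5% with swimming, without overlap, and their part in these values was not tested.

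**Figure D5:**
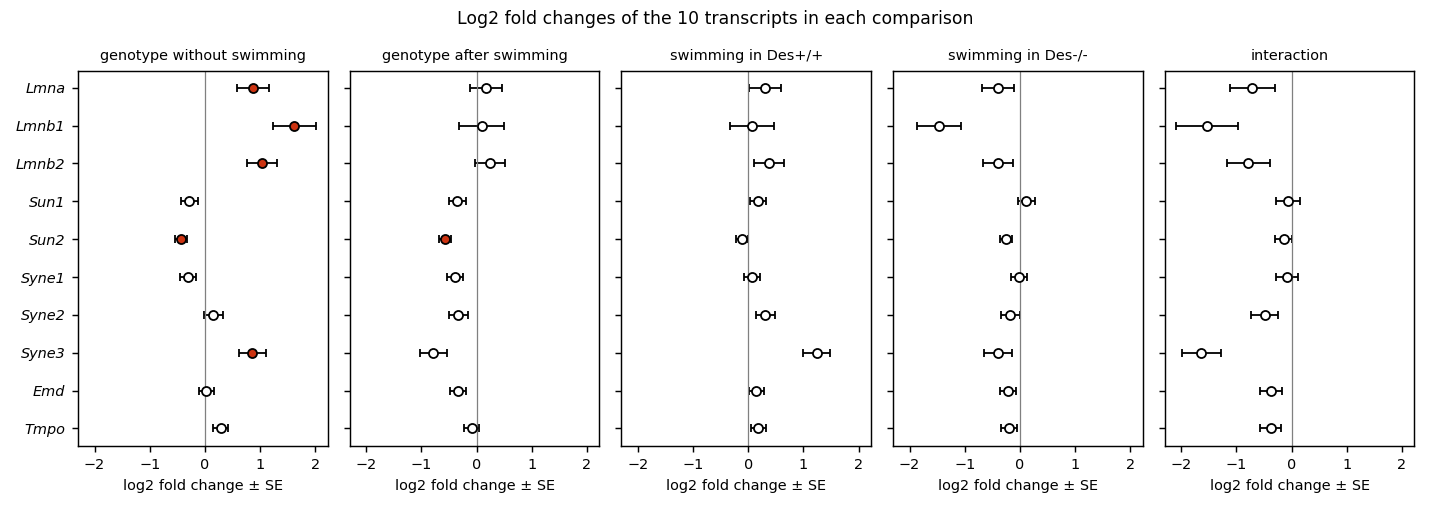
Log2 fold changes ± SE of the 10 genes from the edgeR fit in the 5 comparisons, red where the adjusted p was under 0.05. The 5 calls without swimming and the single call of Sun2 after swimming are the only ones, and the interaction values range from -1.64 for Syne3 to -0.06 for Sun1.

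The interaction, the change of the genotype difference with swimming, asked whether the difference between swim and non-swim ACM depended on genotype. By edgeR no gene at all was called (0.0% of all tested genes), whereas an unadjusted p under 0.05 was reached by 2 members and 16.3% of all tested genes. The 2 were Syne3 (log2 -1.64 ± 0.35, edgeR adjusted p = 0.199) and Lmnb1 (log2 -1.53 ± 0.56, edgeR adjusted p = 0.237). DESeq2 called Syne3 (log2 -1.65, adjusted p = 0.00624) and 2.54% of the genes it tested. With 1 library left out, the Syne3 value lay between -1.82 and -1.45 and was not called by edgeR. The other values were -0.71 ± 0.41 for Lmna, -0.79 ± 0.39 for Lmnb2, -0.06 ± 0.22 for Sun1 and -0.14 ± 0.15 for Sun2. Syne1 gave -0.08 ± 0.21, Syne2 -0.49 ± 0.25, Emd -0.37 ± 0.20 and Tmpo -0.38 ± 0.19, and the edgeR adjusted p of these 8 genes lay between 0.329 and 0.900. All 10 members had an interaction below 0, with a median of -0.43 beside 0.03 for all tested genes, and Sun1 and Syne1 came above 0 in single fits with 1 library left out. The 4 group comparisons share their samples in pairs, so these values are not independent of those given for each of them.

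Ratios between family members within a library do not depend on scaling. Counts plus 2 were divided, and genotype or swimming was tested by two-sided exact permutation within levels of the other factor, with 400 arrangements and a smallest p of 0.005, adjusted over 8 tests. Sun1 against Sun2 gave 0.673 ± 0.0156 in Des+/+ non-swim, 0.827 ± 0.0851 in Des+/+ swim, 0.746 ± 0.131 in Des-/- non-swim and 0.961 ± 0.116 in Des-/- swim libraries (SD, n = 3). The ratio was 1.26-fold higher with swimming (exact permutation p = 0.01, adjusted p = 0.08), which did not pass after adjustment.

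Lmna counts exceeded those of Lmnb1 by 17.1 ± 8.58, 17.2 ± 1.43, 9.12 ± 2.83 and 20.2 ± 6.79 times in the same order of groups. The value was lowest in the Des-/- non-swim group, with overlap between the genotypes. Neither genotype (exact permutation p = 0.375, adjusted p = 0.6) nor swimming (exact permutation p = 0.095, adjusted p = 0.2) passed. The Syne1 to Syne2 ratio was 0.657 ± 0.0870, 0.553 ± 0.0280, 0.481 ± 0.0324 and 0.545 ± 0.117, and the genotype difference did not pass either (exact permutation p = 0.1, adjusted p = 0.2). The Lmna to Lmnb2 ratio lay between 10.2 and 13.0 on average in the 4 groups, and its 2 tests gave adjusted p = 0.74 and 0.905 by exact permutation.

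The partners of these proteins were read from related lists. Of 12 inner nuclear membrane and lamina partners, 1 was called higher and 3 lower without swimming by edgeR, where 14.0% of all tested genes were called higher and 18.0% lower, with a median log2 change of 0.04, equal to that of all tested genes at this precision. The largest was Mlip, a muscle-enriched protein that interacts with lamins A and C, at 69.8 ± 10.7 CPM in Des+/+ and 16.2 ± 10.4 CPM in Des-/- libraries (log2 -2.12 ± 0.38, edgeR adjusted p = 0.00244). Tor1aip1, encoding the lamina-associated polypeptide LAP1, went from 168 ± 16.9 to 115 ± 17.9 CPM (log2 -0.55 ± 0.14, adjusted p = 0.0121). Tmem201, the inner membrane protein SAMP1, went from 153 ± 40.5 to 74.0 ± 32.1 CPM (log2 -1.05 ± 0.29, adjusted p = 0.0172), which was not called without replicate 2 of Des+/+ non-swim (-0.81, adjusted p = 0.0758) or replicate 1 of Des-/- non-swim (-0.97, adjusted p = 0.0534). None of the 12 was called by edgeR after swimming, where their median was -0.24 beside 0.02 for all tested genes.

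Among the 5 enzymes that farnesylate, cleave and methylate prelamin, Fnta, a farnesyltransferase subunit, was lower without swimming (105 ± 0.580 against 70.7 ± 6.57 CPM, log2 -0.57 ± 0.12, edgeR adjusted p = 0.00502). Rce1, a protease of the CAAX end, was higher (15.3 ± 1.57 against 21.4 ± 2.37 CPM, log2 0.48 ± 0.17, adjusted p = 0.0464). These were 1 lower and 1 higher call, where 18.0% and 14.0% of all tested genes were called. After swimming, where 5.57% of all tested genes were called lower, the 2 called were both lower in Des-/- ACM. They were Icmt, the carboxyl methyltransferase (log2 -0.51 ± 0.13, edgeR adjusted p = 0.0363), and Zmpste24, the protease that matures lamin A (67.8 ± 11.4 against 45.2 ± 3.05 CPM, log2 -0.58 ± 0.16, adjusted p = 0.0394). With 1 library left out, Fnta was called in all 12 fits, Rce1 and Icmt in 4 each and Zmpste24 in 6, and the highest edgeR adjusted p of the last 3 genes was 0.147, 0.110 and 0.142, without replicate 3 of Des+/+ non-swim for Rce1 and without replicate 3 of Des+/+ swim for both others.

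Of 6 other SUN and KASH genes, 3 were tested and Sun3 was called lower in Des-/- ACM in both genotype comparisons. Of all tested genes, 18.0% were called lower without and 5.57% after swimming. Sun3, known from the testis, had 79, 13 and 68 reads in the Des+/+ non-swim libraries and 34, 54 and 66 in the Des+/+ swim libraries. It had 2, 0 and 0 reads in the Des-/- non-swim libraries and 2 in each of the Des-/- swim libraries, at or below the floor of 3 counts. Sun3 thus passed the filter on low counts through its Des+/+ libraries alone, and its adjusted p-values are given with that limit. The summed, scaled counts were 84.4 times as high in Des+/+ without swimming (95% exact interval 23.0 to 703, counting error only; edgeR adjusted p = 0.00122) and 18.7 times after it (8.40 to 51.8; adjusted p = 0.0158). The call after swimming was lost without replicate 3 of Des+/+ swim (edgeR adjusted p = 0.0610) or replicate 1 of Des-/- swim (adjusted p = 0.0526).

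Of 11 cytoskeletal partners of nesprins, 4 were called lower and 0 higher without swimming by edgeR, where 18.0% and 14.0% of all tested genes were, with a median of -0.25 beside 0.04 for all tested genes. The lowest adjusted p values were those of Klc2, a kinesin light chain (76.3 ± 19.9 against 34.1 ± 5.90 CPM, log2 -1.16 ± 0.19, edgeR adjusted p = 0.00156), Akap6, the scaffold at the muscle nuclear envelope that binds nesprin-1 (176 ± 26.6 against 57.6 ± 32.0 CPM, log2 -1.61 ± 0.32, adjusted p = 0.00400), and Pcm1, a centriolar satellite protein that surrounds cardiomyocyte nuclei (90.3 ± 8.11 against 63.8 ± 5.68 CPM, log2 -0.50 ± 0.12, adjusted p = 0.00962). After swimming, where 5.57% of all tested genes were called lower, Akap6 alone was called (98.0 ± 20.7 against 38.6 ± 5.81 CPM, log2 -1.35 ± 0.33, edgeR adjusted p = 0.0280). Akap6 missed the threshold without replicates 1 or 3 of Des+/+ swim or any single Des-/- swim library (log2 -1.25 to -1.47, highest adjusted p = 0.0945). Mlip, Akap6 and Pcm1 are known from cardiomyocytes, whose 8 markers had a median log2 change of -2.21 without and -0.95 after swimming, and their part in these values was not tested.

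The nuclear pore complex also sits in the envelope. Of 29 pore genes tested, 1 was called higher (Nup205, log2 0.57 ± 0.17, edgeR adjusted p = 0.0273) and 1 lower (Nup88, log2 -0.39 ± 0.12, adjusted p = 0.0270) without swimming, where 14.0% and 18.0% of all tested genes were, and with 1 library left out they were called in 9 and 8 of 12 fits. The highest edgeR adjusted p was 0.116 for Nup205, without replicate 3 of Des-/- non-swim, and 0.0949 for Nup88, without replicate 2 of Des+/+ non-swim. None was called by edgeR after swimming. The medians were 0.11 and -0.13, beside 0.04 and 0.02 for all tested genes. No gene of the 5 related lists was called by edgeR in either swimming comparison or in the interaction.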

How the data were processed

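Libraries were taken from the sample labels. Deposited files hold raw counts per gene and no normalised values. Per the labels and methods, the authors aligned single-end reads to GRCm38 with HISAT2 2.2.1, handled alignments with SAMtools 1.13 and counted with HTSeq-count in reverse mode. The annotation is not given in the sources used here, and the labels and the methods name different library kits. Reads in no gene made up 34.0% to 64.5% of uniquely aligned reads and were left out. Positions and exon lengths came from GENCODE M21.

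Tests used edgeR 4.0.16 under R 4.3.3 (filterByExpr, TMM, quasi-likelihood tests, 4 group means over all 12 libraries, 8 residual degrees of freedom) and, as an alternative, DESeq2 1.42.0. P-values were adjusted over 13158 genes, with calls at 0.05. The common biological coefficient of variation was 0.271. Tested on simulated data for the comparison of genotypes without swimming (13056 genes), edgeR called 47 of 100 genes changed by 1 log2 unit, 88 of 100 changed by 2 and 7 of 12856 unchanged genes. The simulation held far fewer changed genes than the 4210 called in the data and no outlying library. These rates therefore do not carry over to the data.

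Same-numbered libraries of the Des-/- groups deviated together (correlation across genes 0.365, 0.316 and 0.602), as did differently numbered replicates 1 and 2 (0.299 and 0.292) but not replicate 3 with either (-0.47 to -0.414). Those of the Des+/+ groups did not (-0.41, -0.257 and 0.006). The 3 deviations of a gene in a group sum to 0, so these values set replicate 3 apart and do not show a pairing of replicates 1 and 2. The labels give no pairing. The rule for named genes took all 10 members in every comparison and up to 3 called genes per related list, by lowest adjusted p. Members and lists were chosen with earlier results of these data known. Nupl1, of the pore list, was not matched. The alternatives were other scalings, no filter, the 6 libraries compared, a replicate block, the study's filter, DESeq2, and each library left out.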

Additional observations from a re-analysis of the deposited data

How the results depend on the processing

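The number of members called without swimming, 5 from all libraries by edgeR, was 3 from the 6 libraries alone and 3 without replicate 3 in either Des-/- group. It was 6 with a replicate block within Des-/-, which added Sun1 and called 4922 of all genes. With 1 library left out it was 2 to 5, where 2612 to 4590 of all genes were called instead of 4210. After swimming, 1 member was called in the main setting, 2 by DESeq2, 3 with a replicate block within Des-/-, and 0 to 3 with 1 library left out. All genes called there were 1392, against 2263 by DESeq2, 2429 with that block, 2313 by the study's filter and 74 to 2142 with 1 library left out (74 without replicate 3 of the Des+/+ swim group). For swimming in Des+/+, 0 members were called, against 1, Syne3, with library totals alone, no filter, the block within Des-/-, no replicate 3 in either Des-/- group, the 6 libraries, DESeq2 and the study's filter, and 0 to 1 with 1 library left out. All genes called there were 12, against 54 with relative log expression scaling, 26 with library totals, 58 with no filter, 19 with the replicate block over all libraries, 184 with the block within Des-/-, 743 without replicate 3 in either Des-/- group, 282 from the 6 libraries, 773 by DESeq2, 1358 by the study's filter and 0 to 155 with 1 library left out. For swimming in Des-/-, 0 members were called, against 1, Lmnb1, with the block within Des-/-, by DESeq2 and by the study's filter. All genes called there were 3, against 7 with no filter, 364 with that block, 72 without replicate 3 in either Des-/- group, 0 from the 6 libraries, 323 by DESeq2, 1132 by the study's filter and 0 to 51 with 1 library left out. For the interaction, DESeq2 called 257 genes and 1 member, where edgeR called 0 of both. The block over all libraries changed no call of a member. The block within Des-/- and the sets without replicate 3 were chosen after seeing the data. The study's filter was applied here to the values of the main edgeR fit, not to the study's own results. It takes p up to 0.05 without adjustment, a mean count from 20 and a change from 0.6 log2 units in either direction. Its numbers of genes are therefore not comparable with those called at an adjusted p. Sun2 did not reach 0.6 and was left out by it in both genotype comparisons. The cause of the shifts under the other settings was not tested.

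No called member changed direction in any setting. Uncalled members turned as follows. After swimming, the log2 change of Lmnb1 was -0.012 with the block within Des-/- and -0.33 without replicate 3 in either Des-/- group (-0.33 to 0.38 with 1 library left out), and that of Tmpo was 0.0049 with upper-quartile scaling and 0.055 with library totals. With 1 library left out, the range crossed 0 without swimming for Syne2 (-0.0023 to 0.31) and Emd (-0.036 to 0.0645), for swimming in Des+/+ for Lmnb1 (-0.17 to 0.45) and Syne1 (-0.021 to 0.13), for swimming in Des-/- for Lmna (-0.62 to 0.0675), Sun1 (-0.0185 to 0.23) and Syne1 (-0.15 to 0.066), and for the interaction for Sun1 (-0.21 to 0.053) and Syne1 (-0.23 to 0.004). The log2 difference of the ratio crossed 0 for Lmna to Lmnb2 by genotype (-0.37 to 0.0062) and swimming (-0.22 to 0.16) and for Syne1 to Syne2 by swimming (-0.11 to 0.046). No ratio passed in any setting. Syne3, Lmnb1 and Lmnb2 had 61 to 243, 62 to 679 and 96 to 529 reads per library.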
